A study of Mus musculus with 8 samples.

Results

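Inhibition of the histone methyltransferase DOT1L was examined in 2C::GFP+ mouse embryonic stem cells (ESCs) by comparing 4 of the 8 RNA-seq libraries of the series. The libraries were taken by the name of their column in the table of counts: 2 from 2C::GFP+ cells given 2 µM SGC0946 in medium with 10 ng/ml LIF (2C::GFP+/SGC), and 2 from untreated 2C::GFP+ cells (2C::GFP+). Both groups carry the reporter that gives the genotype label 2C::GFP+, and the compound is the labelled difference between them. The labels place 2C::GFP+/SGC in a medium with knockout serum replacement. For untreated cells they give either that medium or N2B27 with the small molecules PD03 and CHIR9901, both with 10 ng/ml LIF, and do not say which was used for these libraries. The untreated columns are named KOSR, which matches no sample label, and they were assigned by elimination. The letters may stand for knockout serum replacement, the medium of 2C::GFP+/SGC, but the labels do not state this. The other 4 libraries, used below only for context, are from 2C::GFP+ cells under SGC0946 and AS8351, each at 2 µM, whose medium held IL6/sIL-6R but no LIF (2C::GFP+/SA), and from untreated wild-type ESCs (mESC). The labels state neither how long cells were treated, nor whether they were sorted for the reporter, nor whether the 2 libraries of a group came from separate cultures. The p-values therefore measure only the spread between these libraries, which for each gene is largely estimated from other genes.

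DOT1L is the enzyme that methylates lysine 79 of histone H3, a mark found over the bodies of transcribed genes, and SGC0946 is a small molecule that competes with its methyl donor. A small share of ESCs in culture passes at any time through a 2-cell-like state, in which genes of zygotic genome activation are switched on. The transcription factor DUX binds and activates many of these genes, among them the Zscan4 cluster, which acts in telomere maintenance, and reporters driven by the retroviral element MERVL mark the cells. In bulk RNA, a change in the number of cells in such a state and a change in the RNA of each cell cannot be told apart.

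The 2C::GFP+/SGC libraries held 133694657 and 13902619 counts, and the 2C::GFP+ libraries 126660609 and 16474223, so replicate 1 was the deep library in both groups. A gene without a count lay below 0.0224 and 0.216 CPM (counts scaled by the library total) in 2C::GFP+/SGC and below 0.0237 and 0.182 CPM in 2C::GFP+ (3 counts of the total, counting error only). Counts of 2 were 2.48 to 2.85 times as frequent as counts of 1, a pattern given when both mates of a read pair are counted, and precision is then lower than the counts imply. The mitochondrial genes mt-Co2 and mt-Co3, which share 100% and 99.9% of their 31-base words with other genes, were listed at 0 in all 4 libraries, as was mt-Atp8, which shares 7.47%, while mt-Co1, which shares 63.9%, held up to 1173238 counts. How reads that map to several genes were counted is not given in the sources used here, so levels in multi-copy families are uncertain.

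Few of the tested genes were called in the fit on these 4 libraries, and their number varied with the fit, as given below. Of 19656 genes tested, 326 (1.66%) differed between 2C::GFP+/SGC and 2C::GFP+ in edgeR's quasi-likelihood test at a Benjamini-Hochberg adjusted p under 0.05. Of these, 249 (1.27%) were higher and 77 (0.392%) were lower in 2C::GFP+/SGC. The rises were the larger: their median log2 fold change was 1.31, and 211 of 249 reached 2-fold. The falls had a median of -0.68, and 5 of 77 reached 2-fold. Tested only among the 12115 genes that share at most 5% of their 31-base words with another gene, 54 were higher and 54 were lower. Over all tested genes the median was 0.022. All 249 higher genes had both 2C::GFP+/SGC libraries above both 2C::GFP+ libraries, and all 77 lower genes had both below. Over all tested genes, 25.2% were separated upward and 20.3% downward in this way.

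Since its groups do not overlap, each called gene has the same sign in the ratio of the 2 libraries numbered 1 and in that of the 2 numbered 2. The median ratio (log2) of the higher genes was 1.41 between the deep libraries and 1.15 between the shallow ones, and that of the lower genes was -0.70 and -0.69. Across the 13842 genes with a mean of at least 1 CPM, which are not independent replicates, the ratios correlated with a Pearson r of 0.528 and had the same sign in 65.3% of genes. The number of calls depended on the untreated libraries: leaving out 2C::GFP+ replicate 1 gave 39 and leaving out 2C::GFP+ replicate 2 gave 891. Of the 39, 38 were among the 326. A fit over all 8 libraries, whose 4 groups share 1 estimate of the spread, called 0 genes with edgeR and had 2037 at an unadjusted p under 0.05, against 557 calls with DESeq2 on the 4 libraries.

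**Figure D1:**
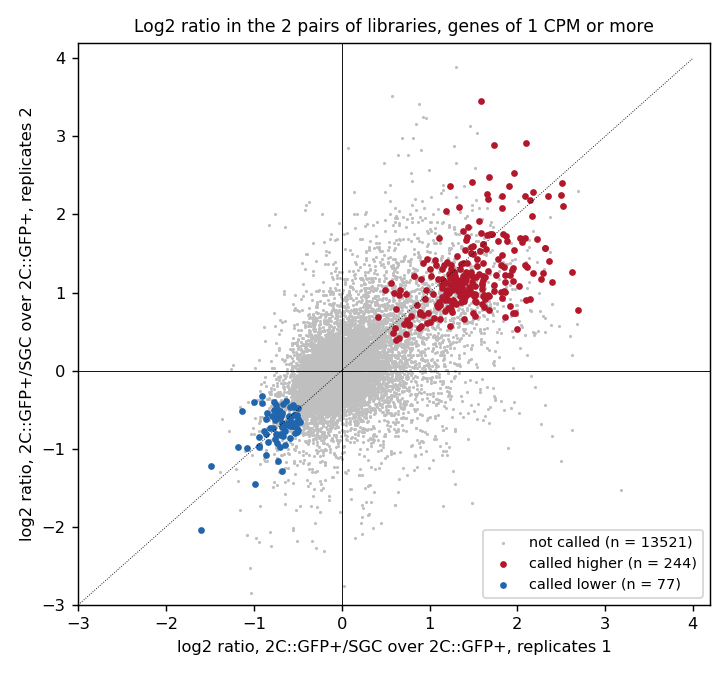
Log2 ratio of 2C::GFP+/SGC over 2C::GFP+ between the 2 libraries numbered 1 (horizontal) and the 2 numbered 2 (vertical), for genes with a mean of at least 1 CPM; 3 genes lie outside the axes. The 244 higher genes (red) and 77 lower genes (blue) drawn sit in the upper right and lower left corners, and the higher genes lie farther from 0.

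Low and abundant genes leaned in opposite directions. The 5814 genes with a mean under 1 CPM had a median log2 fold change of 0.52 and 72.8% positive values, and the 4634 genes from 1 to 10 CPM had 0.21 and 67.0%. The 6791 genes from 10 to 100 CPM had a median of -0.074 and 36.2% positive values, and the 2417 genes of 100 CPM or more had -0.11 and 22.6%. In both pairs the medians were positive under 10 CPM and negative above it. The deep libraries gave the wider range, with medians of 0.58 and -0.19 in the lowest and the highest class, against 0.20 and -0.045 between the shallow ones. After thinning every library to the smallest total, 15177 and 15066 genes had at least 10 counts in 2C::GFP+/SGC, against 14037 and 14362 in 2C::GFP+. Signs and medians of the gene lists stand beside this lean. A negative median in a list of abundant genes, or a positive one in a list of low genes, is thus not particular to that list. Counts of calls in the lists stand beside the 1.27% higher and 0.392% lower among all tested genes.

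Transcripts of the enzyme itself did not pass the test, with both treated values a little above both untreated ones. Dot1l (ENSMUSG00000061589, chromosome 10, 80755206 to 80795461) had 219.9 and 213 CPM in 2C::GFP+/SGC, against 191 and 202 CPM in 2C::GFP+ (log2 fold change 0.14 ± 0.12 (SE), adjusted p = 0.669). SGC0946 acts on the protein, so the level of this transcript does not check the treatment, and no measure of H3K79 methylation was analysed here. Kdm5b, which encodes a demethylase of H3K4 and is the described target of AS8351, had 716 and 914 CPM in 2C::GFP+/SGC, against 772 and 756 CPM in 2C::GFP+, and its groups overlapped (log2 fold change 0.09 ± 0.13 (SE), adjusted p = 0.825). Of 45 tested genes of the DOT1L complex and of transcription elongation, 1 rose, 0 fell and 44 were not called. Their median log2 fold change was -0.056, and over all tested genes 1.27% were higher and 0.392% lower. The riser was Nelfa (ENSMUSG00000029111, chromosome 5, 33897916 to 33936413), a subunit of the negative elongation factor that in mouse also drives the 2-cell-like state. It had 573 and 434 CPM in 2C::GFP+/SGC, against 301 and 266 CPM in 2C::GFP+. Both treated libraries were above both untreated ones (log2 fold change 0.83 ± 0.14 (SE), adjusted p = 0.00456), and the call ended without 2C::GFP+ replicate 1 (adjusted p = 0.0783). The other 3 NELF subunits tested, Nelfb, Nelfcd and Nelfe, had log2 fold changes of -0.29, -0.027 and -0.18. They were named after their values were seen.

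The HOXA genes with their MEIS and PBX partners, which depend on DOT1L in leukaemias with MLL fusions, gave no call among 17 tested (median 0.35). Hoxa9 had 0.426 and 1.40 CPM in 2C::GFP+/SGC, against 0.336 and 0.243 CPM in 2C::GFP+ (log2 fold change 1.45 ± 0.78 (SE), adjusted p = 0.447). Meis1 had 2.66 and 1.33 CPM in 2C::GFP+/SGC, against 2.39 and 1.03 CPM in 2C::GFP+ (log2 fold change 0.21 ± 0.48 (SE), adjusted p = 0.901). In neither gene did the test pass, and the values of Meis1 overlapped between groups. The 2 members with the highest levels were Pbx2 and Halr1, a noncoding RNA beside the cluster, with log2 fold changes of -0.24 ± 0.13 and -0.50 ± 0.15 (SE, adjusted p = 0.453 and 0.119).

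Many markers of 2-cell-like cells and of the onset of zygotic transcription rose. Of 49 tested members, 27 were higher, 0 were lower and 22 did not pass the test. Among all tested genes 1.27% were higher and 0.392% lower. The log2 fold change was positive in 45 members, with a median of 1.17. Of all tested genes, 67.0% from 1 to 10 CPM and 36.2% from 10 to 100 CPM were positive. Members of the list were chosen with earlier results of these data known. Summed over the list, their level was 3936 to 4172 CPM in 2C::GFP+/SGC and 1633 to 2014 CPM in 2C::GFP+ (scaled by library total). Zscan4d (ENSMUSG00000090714, chromosome 7, 11161374 to 11166159) had 544 and 640.2 CPM in 2C::GFP+/SGC, against 220.0 and 306 CPM in 2C::GFP+ (log2 fold change 1.17 ± 0.15 (SE), adjusted p = 0.00138). Zscan4c (ENSMUSG00000054272, chromosome 7, 11005745 to 11010547) had 359 and 384 CPM in 2C::GFP+/SGC, against 157 and 201 CPM in 2C::GFP+ (log2 fold change 1.05 ± 0.13 (SE), adjusted p = 0.000327). In both genes the treated libraries were close to each other and above the untreated pair. Leaving out any 1 library gave log2 fold changes of 0.94 to 1.41 for Zscan4d and 0.88 to 1.225 for Zscan4c. Neither gene was called in the edgeR fit of all 8 libraries (adjusted p = 0.632 and 0.575). Zscan4a, Zscan4b and Zscan4f also rose, and Zscan4e, at 1.08, did not pass the test; these 4 were named after their values were seen. Zscan4-ps3, from the same cluster, had 346 and 319.7 CPM in 2C::GFP+/SGC, against 159 and 178 CPM in 2C::GFP+ (log2 fold change 0.98 ± 0.12 (SE), adjusted p = 0.000307).

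The Usp17l genes encode deubiquitinases that are expressed in 2-cell-like cells and stand in tandem copies on chromosome 7. All 5 members on the list rose, by 1.21 to 1.39 (log2). Usp17lb (ENSMUSG00000062369, chromosome 7, 104840257 to 104842603) had 188 and 197 CPM in 2C::GFP+/SGC, against 77.6 and 82.9 CPM in 2C::GFP+ (log2 fold change 1.26 ± 0.12 (SE), adjusted p = 8.97e-05), the smallest adjusted p of any gene tested, together with that of the predicted gene Gm8300. Usp17le had 181 and 218 CPM in 2C::GFP+/SGC, against 77.1 and 95.9 CPM in 2C::GFP+ (log2 fold change 1.21 ± 0.14 (SE), adjusted p = 0.000252). Usp17lc had 147 and 105 CPM in 2C::GFP+/SGC, against 48.6 and 48.0 CPM in 2C::GFP+ (log2 fold change 1.39 ± 0.16 (SE), adjusted p = 0.000267). The 4 values of each gene fell into clearly separate pairs. Leaving out any 1 of the 4 libraries gave log2 fold changes of 1.045 to 1.614 over these 3 genes. None of the 3 was called in the edgeR fit of all 8 libraries (adjusted p = 0.562 to 0.647).

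Duxf3 (ENSMUSG00000075046, chromosome 10, 58229979 to 58232675), whose product is DUX itself, had 9.32 and 13.8 CPM in 2C::GFP+/SGC, against 4.74 and 5.11 CPM in 2C::GFP+ (log2 fold change 1.22 ± 0.28 (SE), adjusted p = 0.0304). Its treated values were the less even, and the call ended without 2C::GFP+ replicate 1 (adjusted p = 0.361) and without 2C::GFP+/SGC replicate 2 (0.188). Zfp352 (ENSMUSG00000070902, chromosome 4, 90218820 to 90225702), a zinc finger gene of the 2-cell embryo, had 22.5 and 16.4 CPM in 2C::GFP+/SGC, against 6.93 and 4.86 CPM in 2C::GFP+ (log2 fold change 1.70 ± 0.25 (SE), adjusted p = 0.00111). Leaving out any 1 library gave Zfp352 a log2 fold change of 1.47 to 2.00. The edgeR fit of all 8 libraries did not call it (adjusted p = 0.335). Tcstv1 had 10.4 and 5.89 CPM in 2C::GFP+/SGC, against 3.91 and 4.07 CPM in 2C::GFP+, and Tcstv3 had 53.3 and 25.9 CPM in 2C::GFP+/SGC, against 19.1 and 16.7 CPM in 2C::GFP+. Both of these 2-cell-like markers were higher in each treated library than in each untreated one but did not pass the test (log2 fold change 1.06 ± 0.31 and 1.16 ± 0.33, SE, adjusted p = 0.115 and 0.201). Their 2C::GFP+/SGC replicate 1 value was the highest by far.

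Shared sequence limits how far single members of these families can be read. Of the 49 tested members, 37 share over 5% of their 31-base words with another gene, for example 91.5% in Zscan4c. Of these 37, 20 rose, and the median of the 37 was 1.16. The 12 others share less, and 7 of them rose, with a median of 1.17. Abcb5 (ENSMUSG00000072791, chromosome 12, 118867824 to 118966421), an ABC transporter gene in this second class, had 26.2 and 18.2 CPM in 2C::GFP+/SGC, against 7.65 and 5.71 CPM in 2C::GFP+ (log2 fold change 1.72 ± 0.24 (SE), adjusted p = 0.000855). P4ha2 (ENSMUSG00000018906, chromosome 11, 54100095 to 54131665), which encodes a catalytic subunit of collagen prolyl 4-hydroxylase, had 91.6 and 50.3 CPM in 2C::GFP+/SGC, against 17.8 and 19.0 CPM in 2C::GFP+ (log2 fold change 1.97 ± 0.26 (SE), adjusted p = 0.0101). The treated P4ha2 values differed from each other by more than those of Abcb5, and its call ended without 2C::GFP+ replicate 1 (adjusted p = 0.282).

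**Figure D2:**
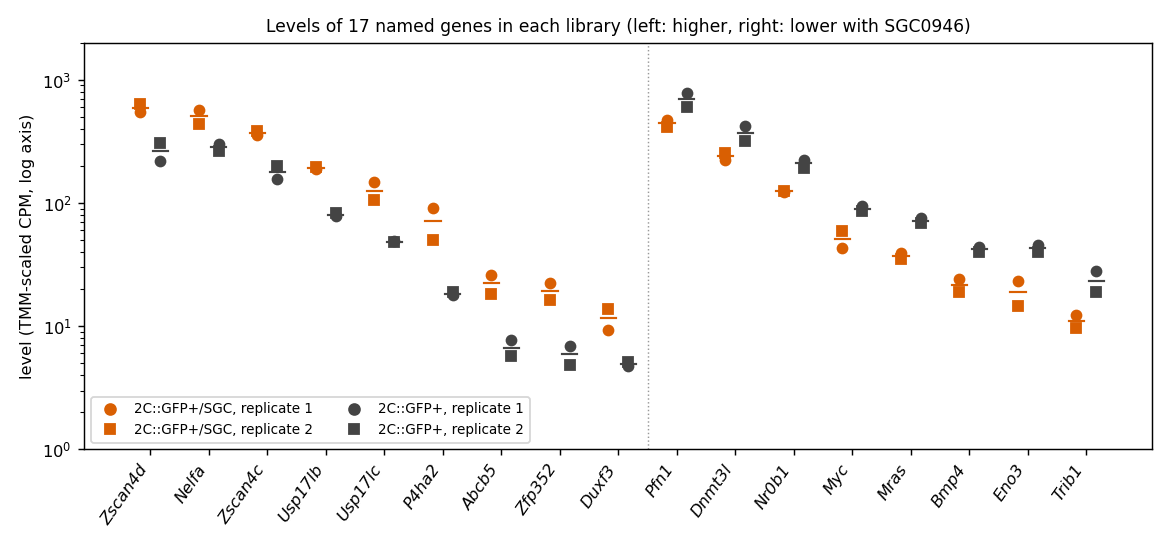
Level of 17 named genes in each library (TMM-scaled CPM, log axis); circles are replicate 1, squares replicate 2 and bars the mean of the 2 libraries of a group. For the 9 genes on the left both 2C::GFP+/SGC values (orange, left of each pair) lie above both 2C::GFP+ values (grey), for example 188 and 197 CPM against 77.6 and 82.9 CPM in Usp17lb, and for the 8 on the right both lie below.

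Promoters of the risers are shown here because the DUX recognition sequence is known and can be looked for. RefSeq (GRCm38.p6) gave 250 bases before to 50 after the start for 131 of the 249 higher genes and 57 of the 77 lower genes. The letters TGATNNAATCA, a core of the DUX recognition sequence, were searched on both strands, and the words TATAAA, the GC box GGGCGG and TTTGCAT, part of the octamer word, were searched as well; these words were chosen with results known. A gene with several listed promoters was counted if any of them held the word. The core stood in 5 of the 131 higher genes (3.82%), 0 of the 57 lower genes and 0.148% of the 12817 tested genes with a promoter. The 5 were Abcb5, Zscan4b, Zscan4c, Zscan4d and Zscan4f, of which 4 are copies of 1 family. TATAAA on either strand stood in 14.5% of the higher, 5.26% of the lower and 9.51% of all tested genes with a promoter. Capitals below mark the DUX core and TATAAA, the second only where it runs in the direction of the gene. Zscan4c and Zscan4f show how alike the copies are, and Abcb5 is the only one of the 5 outside the family. In Zscan4c the core begins 114 bases before the annotated start, in Zscan4f 91 bases before it, and in Abcb5, on the opposite strand, 76 bases before it.
Zscan4c (chr7:11005495-11005794, plus strand): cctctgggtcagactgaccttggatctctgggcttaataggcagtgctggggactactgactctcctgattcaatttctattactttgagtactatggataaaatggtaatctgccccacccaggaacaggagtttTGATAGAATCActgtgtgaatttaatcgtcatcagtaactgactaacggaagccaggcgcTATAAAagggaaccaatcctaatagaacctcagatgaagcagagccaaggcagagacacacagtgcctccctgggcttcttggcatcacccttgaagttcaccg
Zscan4f (chr7:11397665-11397964, plus strand): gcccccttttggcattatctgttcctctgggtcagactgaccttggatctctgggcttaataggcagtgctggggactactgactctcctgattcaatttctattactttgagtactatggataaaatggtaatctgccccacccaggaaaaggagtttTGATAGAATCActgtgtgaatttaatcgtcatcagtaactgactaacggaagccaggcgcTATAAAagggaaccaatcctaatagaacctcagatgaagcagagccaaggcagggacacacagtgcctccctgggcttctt
Abcb5 (chr12:118966372-118966671, minus strand): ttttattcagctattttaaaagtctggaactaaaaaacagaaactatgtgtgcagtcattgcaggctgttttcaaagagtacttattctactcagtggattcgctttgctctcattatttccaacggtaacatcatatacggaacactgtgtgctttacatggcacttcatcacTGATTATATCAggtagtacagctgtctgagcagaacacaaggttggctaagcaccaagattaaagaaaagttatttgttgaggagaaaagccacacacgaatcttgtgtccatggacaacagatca
A match describes letters in these windows and does not show binding. GGGCGG stood in a promoter of 49.6% of the higher genes, 70.2% of the lower genes and 63.8% of all tested genes with a promoter. TTTGCAT stood in a promoter of 3.05% of the higher genes, 12.3% (7 of 57) of the lower genes and 4.23% of all tested genes with a promoter. No test was made of these shares.

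Some of the higher genes stood in clusters along the genome. Stretches of at least 4 higher genes with gaps of at most 1 Mb were found in 7 places, and most of the 249 higher genes lay outside them. For the 77 lower genes 0 such stretches were found, but these genes are fewer and so less likely to form one. Each stretch begins and ends at called genes, and these are counted among its positive values. On chromosome 12, from 87494721 to 89255361, 20 genes rose, by 0.98 to 3.01 (log2), among them BB287469 and predicted genes, and 54 of 56 tested genes of the stretch had a positive log2 fold change. On chromosome 7, from 10794242 to 11614112, 11 genes of the Zscan4 cluster rose and all 18 tested genes were positive. On chromosome 4, from 143551700 to 144364419, 5 genes rose, among them Pramef25, and all 12 tested were positive. All 20, all 11 and all 5 of these genes share over 5% of their 31-base words with another gene, so their counts are not independent. On chromosome 11, from 94756976 to 94828930, all 5 tested genes rose, among them Tmem92, and 4 of the 5 share sequence to this degree.

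The other large rises were spread over genes of varied function. Pclo (ENSMUSG00000061601, chromosome 5, 14514918 to 14863459), which encodes a scaffold of the presynaptic zone, had 25.6 and 22.2 CPM in 2C::GFP+/SGC, against 5.99 and 8.69 CPM in 2C::GFP+ (log2 fold change 1.74 ± 0.23 (SE), adjusted p = 0.000403). Cacna1s (ENSMUSG00000026407, chromosome 1, 136052750 to 136119822), a subunit of the muscle calcium channel, had 36.2 and 27.1 CPM in 2C::GFP+/SGC, against 9.38 and 10.8 CPM in 2C::GFP+ (log2 fold change 1.67 ± 0.20 (SE), adjusted p = 0.000272). Neto2 (ENSMUSG00000036902, chromosome 8, 85636588 to 85700924), an accessory subunit of glutamate receptors, had 30.9 and 34.3 CPM in 2C::GFP+/SGC, against 9.86 and 11.6 CPM in 2C::GFP+ (log2 fold change 1.61 ± 0.19 (SE), adjusted p = 0.000246). In these 3 genes the lowest treated value was over 2 times the highest untreated one. Antxr1, which encodes a collagen-binding receptor, rose by 1.55 ± 0.25 (log2, SE), Nfam1, which encodes an immune receptor, by 1.52 ± 0.22, and the olfactory receptor gene Olfr374 by 1.66 ± 0.31. Without 2C::GFP+ replicate 1, Cacna1s and Neto2 kept their calls (0.0434 and 0.0352), and the adjusted p of Pclo, Nfam1, Antxr1 and Olfr374 was 0.0581 to 0.252. The call of Olfr374 ended without 2C::GFP+/SGC replicate 1, too (0.170).

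The heat shock gene Hspa1a (ENSMUSG00000091971, chromosome 17, 34969190 to 34972156) had the largest rise under the naming rule, with 52.5 and 28.1 CPM in 2C::GFP+/SGC, against 10.5 and 9.42 CPM in 2C::GFP+ (log2 fold change 2.02 ± 0.27 (SE), adjusted p = 0.00389). Its treated values were uneven, and without 2C::GFP+ replicate 1 the adjusted p was 0.163. Hspa1a shares 70.1% of its 31-base words with other genes, and its near-identical neighbour Hspa1b rose by 1.49 ± 0.21 (log2, SE; named after its values were seen). Ddit4, an inhibitor of mTORC1 induced by stress, had 77.6 and 99.3 CPM in 2C::GFP+/SGC, against 41.7 and 60.2 CPM in 2C::GFP+ (log2 fold change 0.80 ± 0.18 (SE), adjusted p = 0.0487) and was the only call among 30 genes of the integrated stress response, 27 of which were positive (median 0.28). Its call ended without 2C::GFP+ replicate 1 (0.406).

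Some germ cell genes rose as well. Of 39 tested, 6 were higher, 1 was lower and 32 did not pass the test. Over all tested genes 1.27% were higher and 0.392% lower, shares that also stand beside the oocyte and imprinted lists below. The germ cell list had 34 positive values and a median of 0.76. Of all tested genes, 67.0% from 1 to 10 CPM and 36.2% from 10 to 100 CPM were positive. Sycp2, a part of the synaptonemal complex of meiosis, had 4.23 and 3.86 CPM in 2C::GFP+/SGC, against 0.999 and 1.22 CPM in 2C::GFP+ (log2 fold change 1.90 ± 0.40 (SE), adjusted p = 0.0184). Tex19.1, which restrains retrotransposons in germ cells, had 99.5 and 149 CPM in 2C::GFP+/SGC, against 70.8 and 72.8 CPM in 2C::GFP+ (log2 fold change 0.78 ± 0.17 (SE), adjusted p = 0.0333). Slc25a31, the ADP/ATP carrier of the testis, had 11.1 and 22.2 CPM in 2C::GFP+/SGC, against 5.12 and 6.81 CPM in 2C::GFP+ (log2 fold change 1.48 ± 0.32 (SE), adjusted p = 0.0370). Without 2C::GFP+ replicate 1 none of these 3 kept its call (0.310 to 0.443). Sycp2 lost it without 2C::GFP+/SGC replicate 1 as well (0.106), and Tex19.1 and Slc25a31 without 2C::GFP+/SGC replicate 2 (0.164 and 0.138). The germ cell gene that fell was Dnmt3l, a cofactor of DNA methyltransferases that is also a gene of formative pluripotency, with 223 and 254 CPM in 2C::GFP+/SGC, against 420.5 and 318 CPM in 2C::GFP+ (log2 fold change -0.63 ± 0.14 (SE), adjusted p = 0.0309). Of 9 maternal oocyte genes 0 rose and 1 fell (median 0.13): Ooep, part of the subcortical maternal complex, with 45.5 and 38.9 CPM in 2C::GFP+/SGC, against 77.3 and 60.1 CPM in 2C::GFP+ (log2 fold change -0.70 ± 0.16 (SE), adjusted p = 0.0291). Of 28 imprinted genes 1 rose, Magel2, with 6.41 and 7.57 CPM in 2C::GFP+/SGC, against 1.79 and 1.58 CPM in 2C::GFP+ (log2 fold change 2.03 ± 0.34 (SE), adjusted p = 0.00335; list median 0.24). Without 2C::GFP+ replicate 1 the adjusted p was 0.330 for Dnmt3l, 0.430 for Ooep and 0.111 for Magel2. The call of Dnmt3l also ended without 2C::GFP+/SGC replicate 1 (0.153) and that of Ooep without 2C::GFP+/SGC replicate 2 (0.0655).

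Of 37 pluripotency genes tested, 2 rose, 2 fell and 33 were not called, beside 1.27% higher and 0.392% lower among all tested genes. The median was -0.27. A positive log2 fold change was seen in 5, beside 22.6% positive among all tested genes of 100 CPM or more. Pou5f1, which encodes the core factor OCT4, had 564 and 572 CPM in 2C::GFP+/SGC, against 755 and 638 CPM in 2C::GFP+ (log2 fold change -0.29 ± 0.12 (SE), adjusted p = 0.296). Sox2 had 386 and 389 CPM in 2C::GFP+/SGC, against 490.0 and 445 CPM in 2C::GFP+ (log2 fold change -0.27 ± 0.12 (SE), adjusted p = 0.328). Zfp42, which encodes the naive marker REX1, had 582 and 477 CPM in 2C::GFP+/SGC, against 843 and 573 CPM in 2C::GFP+ (log2 fold change -0.42 ± 0.18 (SE), adjusted p = 0.346). The treated values of Pou5f1 and Sox2 lay below the untreated ones, and those of Zfp42 overlapped. Nanog had 683 and 620.2 CPM in 2C::GFP+/SGC, against 772 and 618 CPM in 2C::GFP+, with overlapping groups (log2 fold change -0.09 ± 0.13 (SE), adjusted p = 0.819). The genes that fell were Nr0b1, which encodes a partner of OCT4 that restrains the 2-cell-like state in mouse ESCs, and Gbx2. Nr0b1 (ENSMUSG00000025056, chromosome X, 86191764 to 86195947) had 124 and 125 CPM in 2C::GFP+/SGC, against 225 and 193 CPM in 2C::GFP+ (log2 fold change -0.75 ± 0.12 (SE), adjusted p = 0.00335), and without 2C::GFP+ replicate 1 its adjusted p was 0.0833.

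The 2 pluripotency genes that rose were Fbxo15 and Dppa3. Fbxo15, an F-box gene used as an ESC marker, had 576 and 709 CPM in 2C::GFP+/SGC, against 365 and 363 CPM in 2C::GFP+ (log2 fold change 0.82 ± 0.13 (SE), adjusted p = 0.00181). Dppa3, which protects maternal methylation in the zygote, had 7.45 and 10.5 CPM in 2C::GFP+/SGC, against 2.51 and 4.44 CPM in 2C::GFP+ (log2 fold change 1.41 ± 0.33 (SE), adjusted p = 0.0420). Fbxo15 was among the most abundant risers, as was Mreg, which encodes melanoregulin, with 507 and 622 CPM in 2C::GFP+/SGC, against 380.0 and 387 CPM in 2C::GFP+ (log2 fold change 0.56 ± 0.13 (SE), adjusted p = 0.0287). Without 2C::GFP+ replicate 1 the adjusted p was 0.0612 for Fbxo15, 0.518 for Dppa3 and 0.243 for Mreg, and without 2C::GFP+/SGC replicate 2 those of Dppa3 and Mreg were 0.0956 and 0.242.

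Some targets of the LIF and MEK pathways fell. Among all tested genes 1.27% were higher and 0.392% were lower. LIF signals through JAK and STAT3 to hold ESCs in the naive state. Of 18 JAK-STAT3 targets 0 rose and 2 fell, Gbx2 and Myc, with 4 positive values and a median of -0.31. Of 18 MEK-ERK targets 0 rose and 2 fell, Etv4 and Myc, with 4 positive values and a median of -0.30, beside 36.2% and 22.6% positive among all tested genes from 10 to 100 CPM and above. Myc (ENSMUSG00000022346, chromosome 15, 61985391 to 61990374), a growth regulator on both lists, had 43.0 and 59.4 CPM in 2C::GFP+/SGC, against 94.3 and 85.2 CPM in 2C::GFP+ (log2 fold change -0.82 ± 0.16 (SE), adjusted p = 0.0110). Gbx2, a homeobox gene induced by LIF, had 31.4 and 32.2 CPM in 2C::GFP+/SGC, against 58.7 and 42.9 CPM in 2C::GFP+ (log2 fold change -0.68 ± 0.17 (SE), adjusted p = 0.0484). Etv4, an ETS factor downstream of ERK, had 107 and 101 CPM in 2C::GFP+/SGC, against 162 and 140.0 CPM in 2C::GFP+ (log2 fold change -0.53 ± 0.13 (SE), adjusted p = 0.0410). In all 3 genes both treated values were below both untreated ones. None kept its call without 2C::GFP+ replicate 1 (0.224 to 0.583) or without 2C::GFP+/SGC replicate 1 (0.0987 to 0.156), and Etv4 also lost it without 2C::GFP+/SGC replicate 2 (0.141). Of 23 formative and primed genes 0 rose and 3 fell, Dnmt3l, Etv4 and Foxd3, with a median of -0.029. Foxd3, a forkhead repressor, had 29.8 and 31.4 CPM in 2C::GFP+/SGC, against 59.5 and 41.5 CPM in 2C::GFP+ (log2 fold change -0.73 ± 0.17 (SE), adjusted p = 0.0433), and leaving out 2C::GFP+ replicate 1 gave an adjusted p of 0.578, leaving out 2C::GFP+/SGC replicate 1 one of 0.162.

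Among called genes with at least 10 CPM in untreated 2C::GFP+, the largest falls were in Htra1, a secreted protease gene, and Eno3, the muscle enolase of glycolysis. Htra1 (ENSMUSG00000006205, chromosome 7, 130936111 to 130985660) had 8.16 and 5.68 CPM in 2C::GFP+/SGC, against 23.0 and 13.3 CPM in 2C::GFP+ (log2 fold change -1.38 ± 0.28 (SE), adjusted p = 0.0214). Eno3 (ENSMUSG00000060600, chromosome 11, 70657202 to 70662513) had 23.1 and 14.4 CPM in 2C::GFP+/SGC, against 45.6 and 39.8 CPM in 2C::GFP+ (log2 fold change -1.16 ± 0.20 (SE), adjusted p = 0.00805). Trib1, which encodes a pseudokinase, had 12.3 and 9.61 CPM in 2C::GFP+/SGC, against 27.8 and 19.0 CPM in 2C::GFP+ (log2 fold change -1.09 ± 0.22 (SE), adjusted p = 0.0164). Mras, a Ras-family GTPase gene, had 39.1 and 34.8 CPM in 2C::GFP+/SGC, against 75.4 and 68.4 CPM in 2C::GFP+ (log2 fold change -0.96 ± 0.15 (SE), adjusted p = 0.00164). Mras was the most even of these, with ratios of -0.95 and -0.98 between the deep and the shallow libraries. Bmp4 (ENSMUSG00000021835, chromosome 14, 46383520 to 46390669), a ligand of the TGF-beta family, had 24.2 and 18.9 CPM in 2C::GFP+/SGC, against 43.9 and 39.9 CPM in 2C::GFP+ (log2 fold change -0.95 ± 0.17 (SE), adjusted p = 0.00576). Aass, a gene of lysine breakdown, fell by 0.95 on the log2 scale, Ankrd33b by 1.04, Exoc3l by 0.94, Pqlc1 by 0.91 and the zinc finger gene Zfp951 by 0.90. All 10 calls ended without 2C::GFP+ replicate 1, with an adjusted p of 0.0760 to 0.432. Those of Ankrd33b and Zfp951 also ended without 2C::GFP+/SGC replicate 1 (0.132 and 0.0570), and those of Exoc3l and Pqlc1 without 2C::GFP+/SGC replicate 2 (0.0714 and 0.0634).

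The 6 most abundant genes that fell were Pfn1, Tns3, Hk2, Dnmt3l, Tmsb4x and Sept1. Pfn1 (ENSMUSG00000018293, chromosome 11, 70651850 to 70654644), which encodes profilin, had 470.4 and 414 CPM in 2C::GFP+/SGC, against 780.3 and 603 CPM in 2C::GFP+ (log2 fold change -0.65 ± 0.14 (SE), adjusted p = 0.0203). Tmsb4x, which encodes the actin-sequestering thymosin beta 4, had 234 and 248 CPM in 2C::GFP+/SGC, against 362 and 325 CPM in 2C::GFP+ (log2 fold change -0.51 ± 0.12 (SE), adjusted p = 0.0348). Tns3, which encodes a tensin of focal adhesions, had 272 and 265 CPM in 2C::GFP+/SGC, against 398 and 366 CPM in 2C::GFP+ (log2 fold change -0.51 ± 0.12 (SE), adjusted p = 0.0333). Sept1, a septin gene, fell by 0.71 on the log2 scale. These falls were under 2-fold and separated the groups in every case. Of 22 glycolysis genes 0 rose and 3 fell, Eno3, Hk2 and Pdk1, with 17 negative values and a median of -0.11. Among all tested genes 0.392% were lower. Hk2, a hexokinase, had 253 and 259 CPM in 2C::GFP+/SGC, against 370.5 and 351 CPM in 2C::GFP+ (log2 fold change -0.50 ± 0.12 (SE), adjusted p = 0.0363). Pdk1, a kinase that inhibits pyruvate dehydrogenase, had 184 and 169.5 CPM in 2C::GFP+/SGC, against 259 and 236 CPM in 2C::GFP+ (log2 fold change -0.49 ± 0.12 (SE), adjusted p = 0.0493). Without 2C::GFP+ replicate 1 the adjusted p of Pfn1, Tmsb4x, Tns3, Sept1, Hk2 and Pdk1 was 0.211 to 0.310. Without 2C::GFP+/SGC replicate 1 the calls of Tmsb4x, Tns3, Hk2 and Pdk1 ended (0.0948 to 0.159), and without 2C::GFP+/SGC replicate 2 those of Tns3, Sept1, Hk2 and Pdk1 (0.0681 to 0.262).

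Markers of other lineages gave 1 call or none per list, beside 1.27% higher and 0.392% lower among all tested genes. Of 25 primitive endoderm genes 1 rose and 0 fell (median 0.46), and their summed level was 2356 to 2554 CPM in 2C::GFP+/SGC and 2391 to 2768 CPM in 2C::GFP+. The riser was Lamb1, a laminin chain, with 93.5 and 103 CPM in 2C::GFP+/SGC, against 54.8 and 68.0 CPM in 2C::GFP+ (log2 fold change 0.68 ± 0.14 (SE), adjusted p = 0.0183). Gata6, the regulator of that lineage, had 1.70 and 3.86 CPM in 2C::GFP+/SGC, against 1.41 and 2.92 CPM in 2C::GFP+, with overlapping groups (log2 fold change 0.35 ± 0.50 (SE), adjusted p = 0.828). Of 27 trophoblast genes 0 rose and 1 fell, Bmp4 (median 0.16), with a summed level of 763 to 794 CPM in 2C::GFP+/SGC and 660.5 to 789 CPM in 2C::GFP+. Rhox4b of that list was at 0 in all 4 libraries. Cdx2, the regulator of trophoblast, had 0.130 and 0.281 CPM in 2C::GFP+/SGC, against 0.302 and 0.365 CPM in 2C::GFP+, and its groups did not overlap (log2 fold change -0.88 ± 0.95 (SE), adjusted p = 0.757). Of 19 mesendoderm genes none was called (median 0.65), with a summed level of 32.0 to 46.9 CPM in 2C::GFP+/SGC and 24.2 to 37.9 CPM in 2C::GFP+, and Cer1 was at 0. Eomes, a T-box regulator on that list, had a log2 fold change of 0.063. Of 18 neuroectoderm genes 0 rose and 1 fell, Gbx2 (median 0.67), with a summed level of 560.0 to 641 CPM in 2C::GFP+/SGC and 614 to 827 CPM in 2C::GFP+.

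Fibroblast genes mark feeder cells, and of 16 tested 1 rose and 0 fell (median 0.57), with a summed level of 1504 to 1737 CPM in 2C::GFP+/SGC and 1410.5 to 1752 CPM in 2C::GFP+, and Postn and S100a4 were at 0. The riser was Ccn2, a matricellular gene that is also the 1 call among 20 targets of YAP and TEAD (median -0.0070), with 33.2 and 34.0 CPM in 2C::GFP+/SGC, against 19.2 and 20.9 CPM in 2C::GFP+ (log2 fold change 0.75 ± 0.17 (SE), adjusted p = 0.0280). The part of such cells in the result was not tested. Without 2C::GFP+ replicate 1 the adjusted p was 0.310 for Lamb1 and 0.320 for Ccn2, and without 2C::GFP+/SGC replicate 1 the call of Ccn2 ended (0.0720).

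Most of the remaining lists gave no call, and that of Wnt targets gave 2. None of 76 cytosolic ribosomal protein genes was called, though 74 had negative values (median -0.18), for example Rpl4 and Rpsa at -0.23 ± 0.12 and -0.21 ± 0.13 (log2, SE). None was called among 30 proliferation genes (median -0.15; Top2a 0.03 ± 0.12, Mcm2 -0.19 ± 0.12), 25 sterol biosynthesis genes (-0.19; Srebf2 -0.19 ± 0.11) and 7 mitochondrially encoded genes (-0.17; mt-Co1 -0.18 ± 0.12, mt-Cytb -0.28 ± 0.11). Nor was any called among 28 p53 targets (0.030; Trp53 -0.16 ± 0.12, Epha2 0.02 ± 0.13) and 19 interferon response genes (0.066; Stat2 0.08 ± 0.14, Ddx58 -0.83 ± 0.25). Of 30 repressors of the 2-cell-like state none was called (-0.075), with Trim28 at -0.12 ± 0.13 and Ncl at -0.21 ± 0.12. Of 20 canonical Wnt targets 0 rose and 2 fell, Bmp4 and Myc (median 0.19), beside 0.392% lower among all tested genes.

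**Figure D3:**
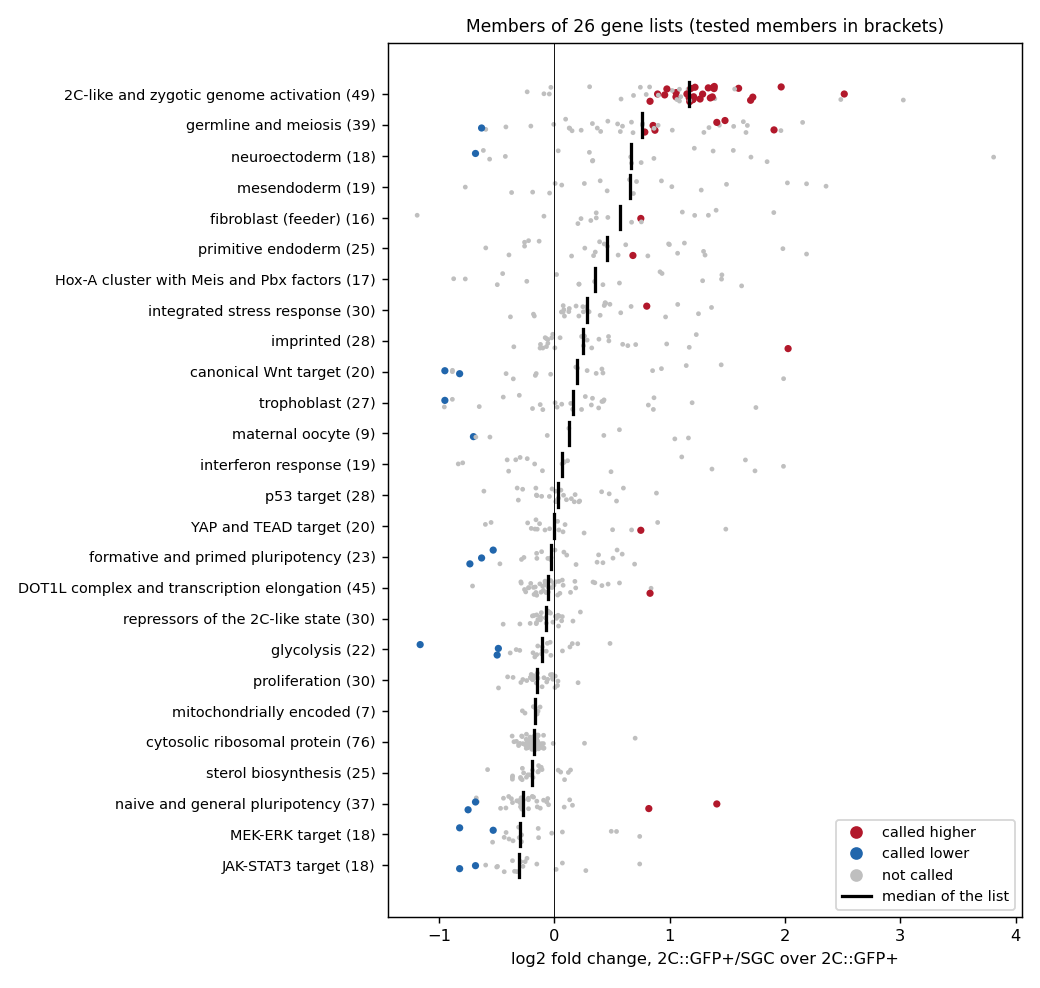
Log2 fold change of 2C::GFP+/SGC over 2C::GFP+ for each tested member of 26 gene lists, sorted by median; vertical ticks are medians, and red and blue points are genes called higher and lower. The 2-cell-like list stands at the top with a median of 1.17 and 27 calls, and the ribosomal protein genes gather slightly below 0 with a median of -0.18.

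The genes called with SGC0946 were then read in 2C::GFP+/SA and mESC, 4 libraries that the comparison did not use. Of the 249 higher genes, 244 were also higher in 2C::GFP+/SA than in mESC, 0 were lower and 5 were not called, beside 24.6% higher and 19.0% lower among the 19192 genes tested in that comparison. Of the 77 lower genes, 34 were lower there, 15 were higher and 28 were not called. The median level of the 249 higher genes, scaled over all 8 libraries, was 117 and 48.2 CPM in 2C::GFP+/SA, 19.8 and 16.1 CPM in 2C::GFP+/SGC, 7.38 and 7.42 CPM in 2C::GFP+ and 0.219 and 0.308 CPM in mESC. That of the 77 lower genes was 47.4 and 49.4 CPM in 2C::GFP+/SA, 57.5 and 52.9 CPM in 2C::GFP+/SGC, 93.7 and 83.3 CPM in 2C::GFP+ and 74.0 and 62.4 CPM in mESC. The medians of the higher genes ran in 1 order through the 4 groups, and those of the lower genes were highest in untreated 2C::GFP+. The order of 2C::GFP+/SGC and 2C::GFP+ follows from the calls, and genes called for high values in 2C::GFP+ are favoured to peak there, so both are descriptions. The 5 higher genes not called there were Pcdh19, Mmp16, Dppa3, Trank1 and Fbn2, named after their values were seen.

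**Figure D4:**
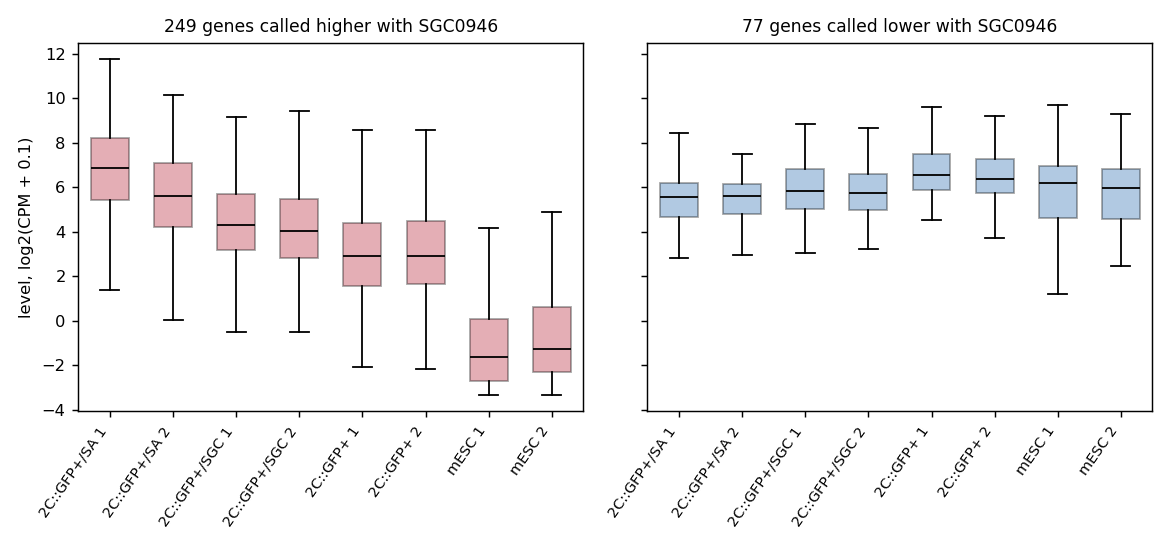
Level, as log2(CPM + 0.1), of the 249 genes called higher and the 77 called lower with SGC0946 in each of the 8 libraries; boxes span the quartiles, lines are medians and whiskers reach at most 1.5 box lengths. The medians of the higher genes descend from 2C::GFP+/SA through 2C::GFP+/SGC and 2C::GFP+ to mESC, and those of the lower genes peak in 2C::GFP+ at 93.7 and 83.3 CPM.

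Genes were also grouped by the size of their change between 2C::GFP+/SA and mESC, and their log2 fold change with SGC0946 was read in each group. The 2C::GFP+/SA cells received SGC0946 as well, so this grouping contains the compound along with AS8351, the cytokine change and the reporter line. Of the 660 genes that were higher in 2C::GFP+/SA by over 8 (log2), 637 had a positive log2 fold change with SGC0946, with a median of 1.37, and 157 were called higher and 0 lower. For the 809 genes from 4 to 8 the median was 1.07, for the 1248 genes from 2 to 4 it was 0.56 and for the 1590 genes under 2 it was 0.049. The 10417 genes not called there had a median of -0.017, and the 3591 lower genes one of -0.10. Among genes with a mean of at least 10 CPM, where the counts are more precise, the medians in the same order were 1.23, 0.80, 0.25, -0.0064, -0.091 and -0.13, and all 111 genes of the class over 8 were positive. Zscan4c, from that class, had 1698 and 637 CPM in 2C::GFP+/SA, against 0.692 and 1.49 CPM in mESC. Mras, from the lower class, had 19.1 and 15.9 CPM in 2C::GFP+/SA, against 60.7 and 56.4 CPM in mESC.

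**Figure D5:**
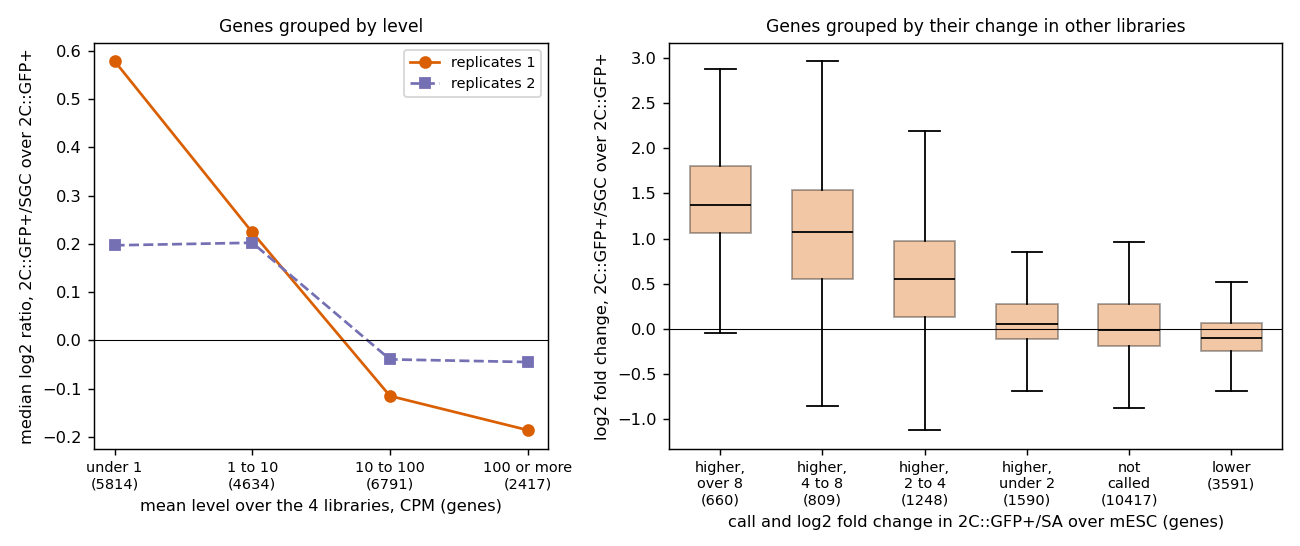
Left, median log2 ratio of 2C::GFP+/SGC over 2C::GFP+ for genes grouped by mean level, in the libraries numbered 1 (circles) and 2 (squares), at 0.58 and 0.20 under 1 CPM and at -0.19 and -0.045 at 100 CPM or more. Right, log2 fold change of 2C::GFP+/SGC over 2C::GFP+ for genes grouped by call and log2 fold change in 2C::GFP+/SA over mESC; boxes span the quartiles, whiskers reach at most 1.5 box lengths, and the medians descend from 1.37 to -0.10.

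The higher and lower genes differed in kind. Of the 249 higher genes 172 (69.1%) were protein-coding and 43 (17.3%) pseudogenes, against 77.8% and 8.51% of all tested genes. Of the 77 lower genes 76 were protein-coding and 1 was a pseudogene. The median gene length was 6591 bases for the higher genes, 36371 bases for the lower genes and 16558.5 bases for all tested genes, and the median of the largest number of exons per transcript was 4, 9 and 7. Over 5% of 31-base words were shared with another gene in 155 of 246 higher genes with sequence (63.0%), in 19 of 77 lower genes (24.7%) and in 38.2% of all tested genes. The lower genes were also the more abundant, with a median of the mean level of 74.4 CPM, against 13.1 CPM for the higher genes and 7.46 CPM for all tested genes.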

How the data were processed

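Polyadenylated RNA was sequenced in 8 libraries, per the labels' protocols. The deposited counts are whole reads per gene that the authors left without normalization, and the deposited TPM values are the authors' length-scaled values, used here only in alternatives. Per the submitters' processing notes, the tools include STAR 2.7.4a, featureCounts 2.0.0, Trim Galore 0.6.5 and FastQC 0.11.9, with the builds GRCm38 and mm10. The sources used here give no strand setting, pairing, annotation or rule for reads mapping to several places. All columns of both tables were mapped (0 left out), the KOSR columns by elimination. Gene positions and symbols are from GENCODE M21 (GRCm38), which holds 55480 of 55573 identifiers.

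Counts of the 4 libraries were filtered with filterByExpr (19656 genes kept), scaled by TMM (factors 0.941 to 1.04) and fitted with 1 term per group by the robust quasi-likelihood method of edgeR 4.0.16 (R 4.3.3). Two-sided p-values were adjusted over all tested genes (Benjamini-Hochberg), and an adjusted p under 0.05 was called. The method was checked on simulated counts with less spread than these data. That check compared planted with fitted fold changes and does not bear on the calls. The fit had a common biological coefficient of variation of 18.0%. It had 2 residual degrees of freedom, against a median of 15.2 prior degrees of freedom drawn from other genes. The 2C::GFP+/SA and mESC libraries were fitted apart in the same way. SE is the log2 fold change divided by the root of F. Ratios of numbered libraries are on log2 CPM with a prior count of 2. DESeq2 1.42.0 and limma 3.58.1 (on log2(TPM + 1) and log2(TPM + 0.1)) gave alternatives, as did other filters, scalings, sample sets and omitted libraries. Sequence sharing was counted on 31-base words of GENCODE transcripts.

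Genes were named as the 10 largest rises and 10 largest falls among called genes with separate groups and at least 10 CPM in the higher one, predicted models and pseudogenes left out. To these come the 6 most abundant calls in each direction, up to 3 calls and 1 opposite call from each of 26 lists (or its 2 most abundant genes), and 17 regulators and markers. The members, lists and tests were chosen with earlier results of these data known.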

Additional observations from a re-analysis of the deposited data

How the results depend on the processing

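The 51 called genes that the naming rule gave kept their direction under every alternative that could test them. Of the 51, 0 kept their call in every alternative, and the number of calls changed. The 326 calls (249 higher, 77 lower) became 557 (387 and 170) with DESeq2, 549 (405 and 144) without the low-count filter and 160 (137 and 23) with the stricter filter. They became 133 (112 and 21) with libraries thinned to equal depth and 13 (13 and 0) with limma on log2(TPM + 1) as on log2(TPM + 0.1). They became 79 (59 and 20) with the 6 libraries without 2C::GFP+/SA and 0 in the fit of all 8 libraries (0 higher and 0 lower; smallest adjusted p 0.116). Among genes sharing little sequence, an alternative chosen after seeing the data, 108 were called (54 and 54). Leaving out 1 library gave 39 to 891 calls, 37 to 481 higher and 2 to 410 lower. The low end came without 2C::GFP+ replicate 1 and the high end without 2C::GFP+ replicate 2, and the lone library was assumed to vary like the others. The 8366 calls of 2C::GFP+/SA against mESC became 4640 to 9085 without 1 library. The causes of these differences were not tested, other than the fewer genes or libraries each setting keeps.

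The labels number the replicates, but nothing says that a number marks a shared culture or day. The deviations of same-numbered 2C::GFP+ and 2C::GFP+/SGC libraries correlated with r = 0.109. With the replicate number as a block there were 1583 calls (1020 higher, 563 lower), and all 326 were among them. None of the 51 called genes of the naming rule changed direction under the block. Of 26 list medians, 17 kept their sign in all alternatives, including that of the 2-cell-like list (1.05 to 1.25) and that of the pluripotency list (-0.34 to -0.17). Replicate 2, with 13902619 and 16474223 counts, limits what low genes can show.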
